A study of Drosophila melanogaster with 2 samples.

Results

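The 10 genes described here encode structural proteins of Drosophila muscle: Msp300, sls and Zasp52 of the Z-disc and its connections, bt and Mhc of the thick filament, and Act57B, Tm1, Tm2, up and wupA of the thin filament. They were chosen by name from the 13945 protein-coding genes on the 6 main chromosome arms, and Msp300 and sls were selected on peaks already seen at them, so that the presence of those peaks is a description and carries no test. A region was given to a gene when its summit lay in the gene body or within 1 kb of any of the gene's transcription start sites (TSSs).

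The regions came from anti-GFP ChIP-seq on 2 biological replicates of whole D. melanogaster embryos, aged 0 to 24 h, with males and females pooled; they form 1 group without a treatment. Both replicates are of the strain CG9876-GFP, a transgenic line that stably expresses the homeobox gene CG9876 with a C-terminal GFP tag. Control libraries were not analysed here, and all embryonic tissues and ages are mixed, so that nothing below separates muscle from other cells. The 4 deposited dm6 lists used hold 30000 candidate regions of each replicate, 30000 called on both replicates combined, and 2433 reproducible peaks drawn from these; they give positions and signals, not expression, and the sequencing depth behind them is unknown.

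Striated muscle contracts by sliding thin filaments of actin, tropomyosin and troponin past thick filaments of myosin. Z-discs anchor the thin filaments, and titin-like proteins tie them to the thick filaments elastically. In the fly embryo the body wall muscles form by myoblast fusion and then build these sarcomeres, with the MADS-box factor Mef2 acting at many of the structural genes.

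The genomic sequence under the summits of the 3 genes with a reproducible peak is shown first. Each line is the plus strand of dm6 from 100 bp before to 100 bp after the summit, read from the RefSeq genome, with every match to the motifs searched in capitals. For Msp300 (chr2L:5108069-5108269) the capitals mark a MEF2 site, for Tm1 (chr3R:15292355-15292555) a run of CACA repeats read on the other strand and an E-box, and sls (chr3L:2115790-2115990) held no match. The strongest combined regions of up (chrX:13595154-13595354, a TATA box in capitals) and Tm2 (chr3R:15312580-15312780, an E-box in capitals) are shown beside them as regions that were not reproducible.
Msp300: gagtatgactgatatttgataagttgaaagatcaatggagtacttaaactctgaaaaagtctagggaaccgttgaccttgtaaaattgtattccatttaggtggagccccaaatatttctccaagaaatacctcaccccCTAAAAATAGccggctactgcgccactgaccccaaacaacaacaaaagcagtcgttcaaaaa
sls: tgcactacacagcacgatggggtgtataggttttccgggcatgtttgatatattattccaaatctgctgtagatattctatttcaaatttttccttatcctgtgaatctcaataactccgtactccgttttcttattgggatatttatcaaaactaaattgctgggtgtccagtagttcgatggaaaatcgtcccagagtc
Tm1: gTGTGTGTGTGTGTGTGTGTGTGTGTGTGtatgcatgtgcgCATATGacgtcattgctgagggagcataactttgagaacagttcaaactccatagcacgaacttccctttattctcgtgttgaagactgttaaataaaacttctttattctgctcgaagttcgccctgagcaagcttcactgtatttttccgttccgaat
up: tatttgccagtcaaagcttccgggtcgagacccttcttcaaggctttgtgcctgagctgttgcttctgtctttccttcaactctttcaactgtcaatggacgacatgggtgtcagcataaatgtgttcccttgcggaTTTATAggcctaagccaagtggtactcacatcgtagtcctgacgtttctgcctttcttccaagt
Tm2: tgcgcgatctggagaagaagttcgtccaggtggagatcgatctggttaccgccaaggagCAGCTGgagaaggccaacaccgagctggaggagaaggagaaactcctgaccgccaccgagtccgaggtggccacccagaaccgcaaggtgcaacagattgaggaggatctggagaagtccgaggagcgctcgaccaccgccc

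The 3 windows of reproducible peaks held no coding sequence and had GC contents of 39.8% (Msp300), 38.3% (sls) and 42.8% (Tm1), beside a median of 38.8% over all 2433 reproducible summits. The windows of the strongest combined regions of the other members varied: that of Tm2 was coding sequence throughout, with a GC content of 60.7%, that of bt was coding over 83.6% of its length, with 42.3%, and that of up over 61.7%, with 47.3%. Those of wupA, Mhc and Zasp52 held no coding sequence either, with GC contents of 38.8%, 49.8% and 50.2%. The median over all 30000 combined summits was 48.3%, and over windows centred on 19252 TSSs it was 42.3%.

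Msp300 carried the highest signal of the 10 genes. It encodes a giant spectrin-repeat protein of the nesprin family that links nuclei to the muscle cytoskeleton and is also found at Z-discs. Its peak (2L, 5108047 to 5108293, summit 5108169) had a combined signal of 593.6, a replicate 1 signal of 355.1 and a replicate 2 signal of 243.5, where signal is the authors' own unit and is ranked only within a list. These values placed it at rank 52, rank 43 and rank 56 of 30000 regions. Its q-value of 0.00023 was the lowest in the combined list, a value also held by the sls peak at rank 397.

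The Msp300 peak lay at an internal start and not at the annotated 5' end of the gene. The gene runs over 106126 bp (2L, 5100877 to 5207002, plus strand) and has 5 annotated TSSs. The summit was 7.292 kb into the gene, in an intron of its longer transcripts, 343 bp upstream of the TSS at 5108512 shared by transcripts RD and RL, and 645 bp upstream of that of RB. At the 5'-most TSS, used by RH, RI, RJ and RK, the combined list and replicate 1 held no region within 1 kb and replicate 2 held 1. The second-ranked combined region of the gene had a signal of 59.6 and lay 679 bp upstream of the TSS of RF. The strongest region stood 9.96 times above the second-ranked one in the combined list, and by replicate 9.84 times (1) and 5.61 times (2). The peak was 247 bp wide, beside a median of 370 bp in the combined list.

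The gene sls encodes the titin-like proteins Sallimus and Kettin, which span the I-band and set the stiffness of the sarcomere. Its peak (3L, 2115705 to 2116074, summit 2115890) had a combined signal of 223.3, a replicate 1 signal of 114.6 and a replicate 2 signal of 110.2, at ranks 397, 433 and 419. All 13 annotated transcripts of sls start at 2115611 on the minus strand, and the summit lay 279 bp upstream of that TSS. The nearest TSS of another gene, that of zormin, which encodes another large sarcomeric protein, was 35.8 kb away, and the next reproducible peak was 141583 bp away, nearest to Elp5.

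Elsewhere in sls the regions were weaker. Its other 7 combined regions all had their summits in coding exons, with signals from 28.2 to 42.2, so that the promoter peak stood 5.29 times above the second-ranked region in the combined list. Replicate 1 listed 18 regions at sls, 15 of them in coding exons, whereas replicate 2 listed 5. In both replicates the promoter peak ranked above all the others of the gene, 3.67 times and 6.37 times above the second-ranked one.

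**Figure D1:**
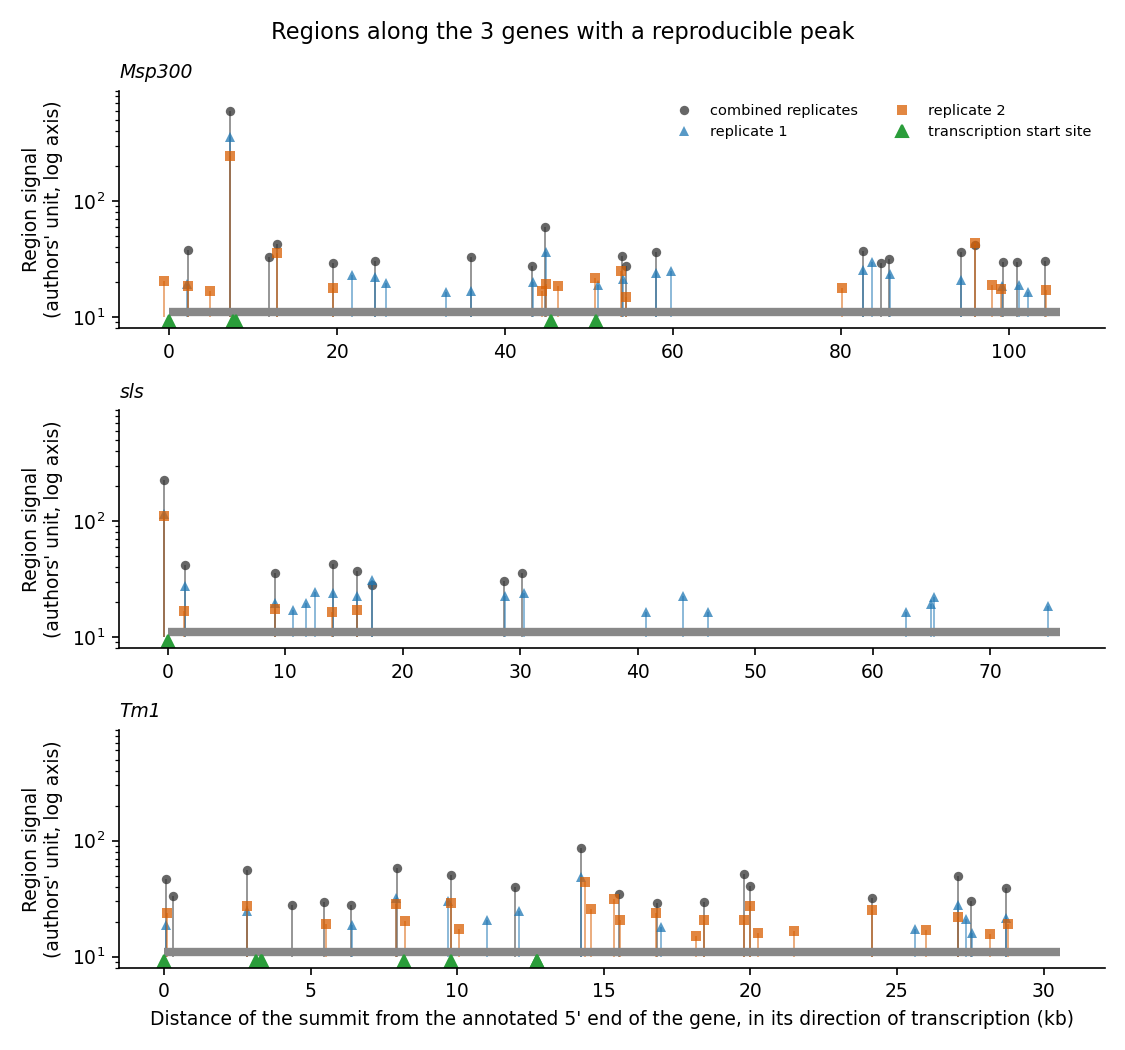
Signal of every listed region (log axis, authors' unit) along Msp300, sls and Tm1, against the distance of the summit in kb from the annotated 5' end of the gene in its direction of transcription; circles are the combined list, triangles replicate 1, squares replicate 2, green triangles TSSs and the grey bar the gene body. The Msp300 peak (593.6, 355.1 and 243.5) stands beside an internal TSS, the sls peak (223.3, 114.6 and 110.2) just before its TSS, and the Tm1 peak (86.7, 48.2 and 44.3) in an intron.

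Tm1 encodes tropomyosin, which lies along the thin filament, in muscle and cytoskeletal forms made from several promoters. Its reproducible peak (3R, 15292270 to 15292639, summit 15292455) had a combined signal of 86.7, a replicate 1 signal of 48.2 and a replicate 2 signal of 44.3, at ranks 2381, 1995 and 2694. It was thus close to the end of the reproducible list, whose weakest peak had a signal of 85.4, and its rank in replicate 2 was below the 2433 strongest regions. The summit lay in an intron, 1509 bp downstream of the TSS at 15290946 (transcripts RQ and RR), and the nearest TSS of another gene, CG45218, was 1656 bp away. The next reproducible peak was 17.0 kb away, nearest to CG4338.

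Tm1 differed from Msp300 and sls in holding many regions of similar signal. It had 19 combined regions over 30.6 kb, 6 of them within 1 kb of one of its 8 TSSs. Some of the 19 overlap each other, those of 51.3 and 40.3 and those of 46.5 and 33.5. Of the 6, those of 39.9 and 33.5 lay nearer to the TSSs of CG45218 and l(3)neo43. Next to the reproducible peak at 86.7, regions upstream of the TSSs of RH (254 bp away) and RG (328 bp away) had combined signals of 58.6 and 56.1, and a region at the TSS of RC and RI (9 bp away) had 50.1. The intron region of 51.3 had its summit in a region of replicate 2 only. The strongest region was 1.48 times above the second-ranked one in the combined list, and by replicate 1.51 times (1) and 1.41 times (2).

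The other thin filament genes had no reproducible peak. Tm2, which encodes the other muscle tropomyosin, had 2 combined regions with signals of 53.0 (replicate 1 20.1, replicate 2 31.1) and 39.9 (replicate 1 21.8, replicate 2 32.2), both within 1 kb of a TSS. The troponin T gene up had 4, the strongest in an intron with 55.1 (replicate 1 30.2, replicate 2 28.3) and another 53 bp upstream of the TSS of RS with 42.9 (replicate 1 23.8, replicate 2 19.2). The troponin I gene wupA had 5, all between 27.3 and 36.4, and none had its summit in a region of both replicates. An intron region of replicate 1 (19.1) and one of replicate 2 (17.9) did overlap each other at wupA. All of the combined regions of Tm2, up and wupA ranked 5495 or lower in the combined list.

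Act57B, the larval body wall muscle actin gene and the shortest of the 10 (2.41 kb, on 2R), had no combined region at all. Replicate 1 listed 2 regions there, the first 875 bp downstream of the TSS with a signal of 23.5 and the second in the 3' UTR with 16.8, and replicate 2 listed 1 in the coding exon with 22.6. The replicates' regions did not overlap each other, and a region that is not listed is not shown to lack signal.

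In the thick filament, Mhc encodes the muscle myosin heavy chain. It held 10 combined regions over 22.2 kb, and the strongest, 42 bp from the TSS of RK, had a combined signal of 47.9 (rank 7727), with 28.4 in replicate 1 and 19.2 in replicate 2. The other 9 had 27.2 to 39.9 and lay in coding exons (5) or introns (4). The gene bt encodes projectin, a titin-like kinase that ties thick filaments to the Z-disc; over 52.1 kb it held 2 combined regions, with signals of 46.6 and 31.5, both in coding exons more than 20 kb from any of its TSSs. Both were in replicate 2 (26.5 and 23.4), and neither summit lay in a region of replicate 1. A replicate 1 region with a signal of 19.6 did overlap the stronger of them, without reaching its summit. No list held a region within 1 kb of a bt TSS.

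The gene bt lies on chromosome 4, where the replicate lists differed in number. Replicate 1 listed 29 regions on that chromosome and replicate 2 listed 238, with 83 in the combined list and 14 reproducible peaks. Whether this difference bears on the counts at bt, 4 regions in replicate 1 and 6 in replicate 2, was not tested.

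Zasp52, a PDZ and LIM domain protein that assembles Z-discs together with alpha-actinin, lies on 2R and had 15 combined regions over 54.4 kb. The strongest, 28 bp downstream of the TSS of RC and RZ, had a combined signal of 63.2 (rank 4099), ranked 9187 in replicate 1 and 6308 in replicate 2, and was the strongest region of the 10 genes outside the reproducible list. Just beyond the rule stood 2 reproducible peaks whose nearest TSS is that of Zasp52. The first had a signal of 89.8 (51.7 in replicate 1, 38.7 in replicate 2) with its summit 1666 bp upstream of the TSS of RC and RZ. The second had 90.6 (40.8 in replicate 1, 46.6 in replicate 2), with its summit beyond the 3' end of the gene and its edge inside it, 13.6 kb from the nearest TSS. Neither counts toward Zasp52 here. Of the combined regions, the last within 1 kb of a member's TSS was at Zasp52 (910 bp, signal 28.4) and the first beyond it at Tm1 (1038 bp, signal 28.1).

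**Figure D2:**
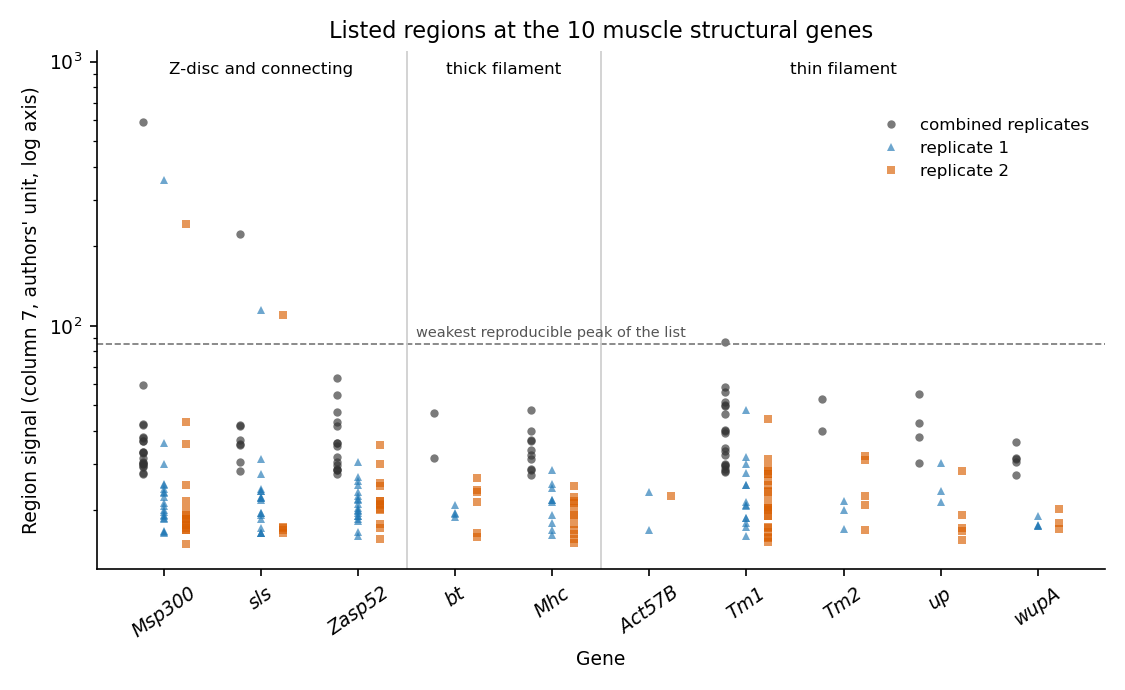
Signal of every listed region (log axis, authors' unit) at each of the 10 genes, grouped by role; circles are the combined list, triangles replicate 1 and squares replicate 2, and the dashed line is the weakest reproducible peak (85.4), to be read against the circles. Msp300 and sls stand apart with 593.6 and 223.3, Tm1 touches the line with 86.7, and no circle of the other genes is above 63.2.

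Over the 10 genes, 3 held a reproducible summit by the rule (Msp300, sls and Tm1), and 18.0% of all protein-coding genes did (2509 of 13945). Within 1 kb of a TSS, 2 of the 10 had such a summit (Msp300 and sls), against 15.8% of all genes. Long genes offer more sequence to the rule: among genes of 20 kb or more, 3 of the 6 members of that length were called, against 39.2%, and 2 of the 6 at a TSS, against 22.4%. In the strongest 2433 regions of replicate 1 the same 3 genes held a summit, against 18.0% of all genes, and in those of replicate 2 the 2 genes Msp300 and sls did, against 17.4%. In the combined list 9 of the 10 held a summit, Act57B being the exception, against 69.8% of all genes. Since members were chosen with such peaks in view, nothing is read from these counts beyond their size.

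Pooled over their length, the 10 genes held fewer combined regions than all genes and more than genes of 20 kb or more. There were 85 combined regions in the 379.2 kb searched. This is 2.24 per 10 kb, against 2.61 for all genes and 2.0 for genes of 20 kb or more. The pooled value is not shared by the genes. Values were below 2.61 at Msp300 (1.87), sls (1.04), bt (0.377) and Act57B (0.0). They were above it at Tm1 (6.02), Mhc (4.31), wupA (4.05), up (3.96), Tm2 (3.33) and Zasp52 (2.71). Of the 85, 3 were reproducible (3.529%, 95% Clopper-Pearson interval 0.7338 to 9.97), against 8.609% at all genes and 6.636% at genes of 20 kb or more. The median signal was 34.97, against 37.3 at all genes. The 82 regions that were not reproducible had signals from 27.2 to 63.2 and q-values from 0.037 to 0.91. Intervals cover counting error only.

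Their summits lay in coding exons more often than those of all genes: 35 of 85 (41.2%), against 20.8% of the 25045 combined regions at all genes, with 30 (35.3%) in introns, against 33.0%, and 20 (23.5%, interval 15.0 to 33.97) within 1 kb of a TSS, against 43.9%. In genes of 20 kb or more the share within 1 kb of a TSS was 18.66%. Outside the TSS windows coding sequence filled 45.8% of the 10 gene bodies, against 16.2% for all genes, with 61.0% at Msp300 and 73.0% at sls. Per length, the members' coding exons held 2.07 summits per 10 kb, against 3.57 for all genes, and their introns 2.04, against 1.76. Msp300 and sls together hold most of this coding sequence, 64.8 kb and 55.5 kb of 169.0 kb. No test was made of these shares, which count regions within genes and not samples.

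Across the genes the density in coding exons was 0 at Act57B, Tm2 and wupA, with less than 1 kb of coding sequence each outside the TSS windows. It was 0.752 summits per 10 kb at bt, 1.26 at sls, 2.01 at Msp300 and 3.48 at Zasp52. It was above the value for all genes at Mhc (7.37), up (8.3) and Tm1 (11.3). These densities rest on few summits, 5 in 6.79 kb, 1 in 1.21 kb and 4 in 3.54 kb. The thin filament genes together had 4.73 combined regions per 10 kb, the Z-disc and connecting genes 1.8 and the thick filament genes 1.57. The value for all genes was 2.61. Genes of the same role differed: thin filament values ran from 0.0 (Act57B) to 6.02 (Tm1). Those of the Z-disc and connecting genes ran from 1.04 (sls) to 2.71 (Zasp52), and bt had 0.377 and Mhc 4.31.

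The replicates differed in where they placed their regions at these genes. Replicate 1 listed 97 regions and replicate 2 listed 90, and 36.1% of the first (35) and 42.2% of the second (38) overlapped a region of the other replicate. The same overlap was not counted over all genes, so these shares are not read as particular to the members. In replicate 1, 57.7% of the summits (56) were in coding exons and 19.6% (19) in introns. In replicate 2 the coding share was 25.6% (23) and the intron share 42.2% (38). At all genes the lists differed the same way in coding exons and less so, 23.1% in replicate 1 and 16.5% in replicate 2, while introns took 36.0% and 32.5%. The median GC content of the 201 bp around the members' summits was 49.8% in replicate 1 and 44.5% in replicate 2, and 49.8% and 46.3% at all genes; its part in the difference was not tested.

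Of the 85 combined regions at the 10 genes, 30 had their summit inside a region of both replicates (35.29%, interval 25.23 to 46.41), against 39.5% at all genes. By place, these were 12 of the 20 regions within 1 kb of a TSS (60.0%), 13 of the 35 in coding exons (37.1%) and 5 of the 30 in introns (16.7%), against 46.9%, 31.1% and 35.6% at all genes. Coding-exon regions found in 1 replicate were in replicate 1 for 14 and in replicate 2 for 6. At all genes these counts were 1828 and 1284, so the lean to replicate 1 was not particular to the members. Intron regions found in 1 replicate were in replicate 1 for 7 and in replicate 2 for 16, against 2313 and 2268 at all genes. For regions within 1 kb of a TSS these counts were 5 and 2, against 2026 and 3160 at all genes. No test was made of these counts. Regions of the 3 reproducible peaks were matched in both.

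**Figure D3:**
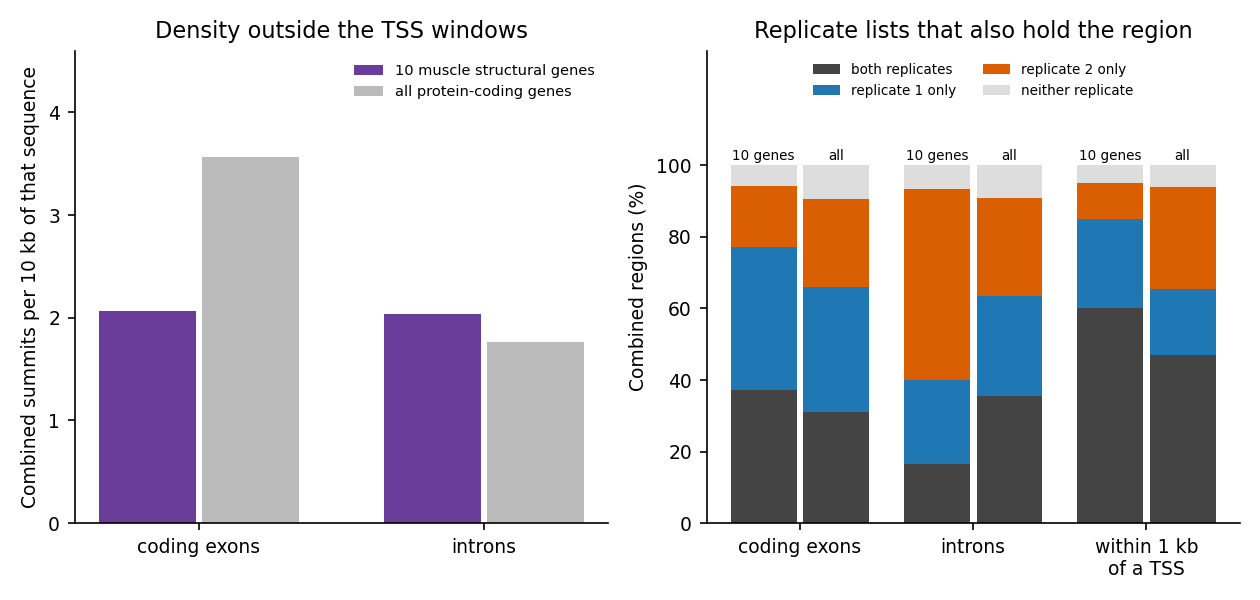
Left, combined summits per 10 kb of coding exon and of intron outside the TSS windows, for the 10 muscle structural genes and for all protein-coding genes; right, the percentage of combined regions by place whose summit is in both replicate lists, in 1 of them or in neither, with the 10 genes to the left of all genes. Coding exons of the 10 genes have 2.07 summits per 10 kb, against 3.57 for all genes, and 53.3% of their intron regions are in replicate 2 only, against 27.4%.

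Where both replicates held a region, the median log2 ratio of replicate 1 to replicate 2 signal was 0.12 over the 30 matched member regions (SD 0.38, range -0.63 to 0.91), against 0.05 over matched regions at all genes (SD 0.57). Replicate 1 was higher in 22 of the 30 (73.3%), against 5302 of 9894 at all genes (53.6%). The ratio was 0.54 at the Msp300 peak, 0.06 at sls and 0.12 at Tm1, all within the SD at all genes. The largest was 0.91, at the second-ranked Msp300 region, and the lowest -0.63 and -0.56 at the 2 Tm2 regions. The authors' scaling of the replicate lists is unknown, so that a common shift in these ratios has no reading.

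**Figure D4:**
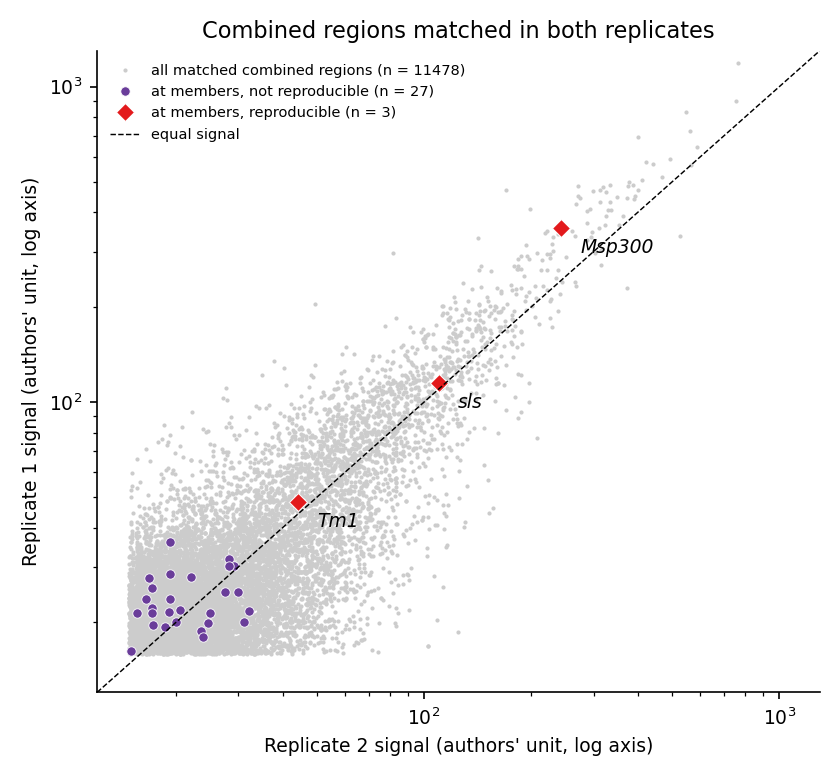
Replicate 1 against replicate 2 signal (both log axes, authors' unit) of the combined regions matched in both replicates, with all 11478 in grey, the 27 member regions that are not reproducible in purple, the 3 reproducible ones in red, and a dashed line of equal signal. Msp300 and sls lie high along the line (355.1 against 243.5 and 114.6 against 110.2), and the purple points gather at its low end.

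The reproducible peaks whose ranks in the 3 lists were most like those of the member peaks, by the sum of absolute log2 rank differences over 2363 peaks matched in both replicates, are named by their nearest TSS. For Msp300 these were the peaks nearest to CG8320 (0.23), Raf (0.29), which encodes a kinase of the receptor tyrosine kinase cascade, and amon (0.38), which encodes a proprotein convertase. For sls they were APP-BP1 (0.09), RpL23 (0.09), a ribosomal protein gene, and CG3358 (0.1). For Tm1 they were mam (0.11), a Notch coactivator gene, CG15771 (0.12) and Ulp1 (0.13), a SUMO protease gene.

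A search of both strands in these 201 bp windows for 10 motifs found 3 of the motifs at the 3 reproducible member peaks. Core promoter motifs were the DRE (TATCGATA), Ohler motif 1 (GGTCACACT) and the TATA box (TATAAA). Those of homeodomain proteins were a shorter core (TAATTA) and the longer P3 site of the paired class. The MEF2 site was searched by its consensus. E-boxes were CAGCTG, with a GC centre, and CATATG, with an AT centre. Low-complexity motifs were the GAGA element (GAGAGAG) and the CACA repeat (CACACACA). Matches of the MEF2 site and the TATA box can overlap each other, as can successive CACA repeats.

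The Msp300 window held a MEF2 site starting 39 bp to the right of the summit, a motif that 8.1% of reproducible windows, 3.7% of combined windows and 5.97% of TSS windows held. The Tm1 window held the CACA repeat run from 99 bp to the left of the summit (4.23%, 6.05% and 4.0% of these windows) and the E-box CATATG 59 bp to the left (6.58%, 5.01% and 4.06%). The homeodomain core was in 11.3%, 7.6% and 9.39% of windows and the P3 site in 1.52%, 0.913% and 1.1%, and neither was in the 3 member windows. Among the strongest combined regions of the other members, Tm2 held the E-box CAGCTG 41 bp to the left of the summit (10.9%, 13.0% and 13.4%) and up a TATA box 37 bp to the right (25.6%, 13.3% and 26.9%). Zasp52 held a TATA box 37 bp to the left, wupA a TATA box, a GAGA element and a CACA repeat, and bt and Mhc none of the motifs. Each match is a description of letters in a window.

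Of 29 other muscle genes, 8 held a reproducible summit by the same rule (27.6%), against 18.0% of all protein-coding genes. The list was drawn up with results of these data known, and no test was made of it. By role, 5 of 7 genes of muscle attachment held a summit, 1 of 5 of the Z-disc, 1 of 6 of the thick filament and 1 of 10 of the thin filament, while the chaperone gene unc-45 held none. Of the 5 attachment genes, Dys, if and rhea are longer than 20 kb, a length at which 39.2% of all genes held a summit, and mys and Dg are shorter. The other muscle actin genes and the troponin C genes, partners of up and wupA in the thin filament, had combined signals of at most 58.3 or no region.

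The attachment genes encode the integrin and dystrophin systems that hold muscle ends to tendons and the membrane. Dg, dystroglycan, had a combined signal of 260.2 (128.6 and 135.4 in replicates 1 and 2), at a summit whose nearest TSS is that of mRpL34. Dys, dystrophin, held 5 reproducible summits, the strongest in an intron with 256.4 (132.1 and 111.3 in replicates 1 and 2). The integrin subunit genes mys and if had 171.4 (107.3 and 69.4) at 32 bp upstream of a TSS and 114.8 (68.9 and 47.9) at 207 bp downstream. The talin gene rhea had 118.1 (58.7 and 48.5).

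Outside attachment, tmod, which encodes the cap of the thin filament's pointed end, had 313.7 in the combined list (167.8 and 140.1 in replicates 1 and 2), in an intron 1441 bp downstream of a TSS. This was above sls and below Msp300. Obsc, listed under its older symbol Unc-89 and encoding the M-line protein obscurin, had 165.0 (109.1 and 60.2), in a coding exon nearest to the TSS of CG3860. Actn, alpha-actinin, had 109.6 (62.8 and 47.1), at a summit whose nearest TSS is that of usp. So for 3 of these 8 genes (Dg, Obsc and Actn) the nearest TSS belonged to another gene, which was not the case for Msp300, sls or Tm1.

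**Figure D5:**
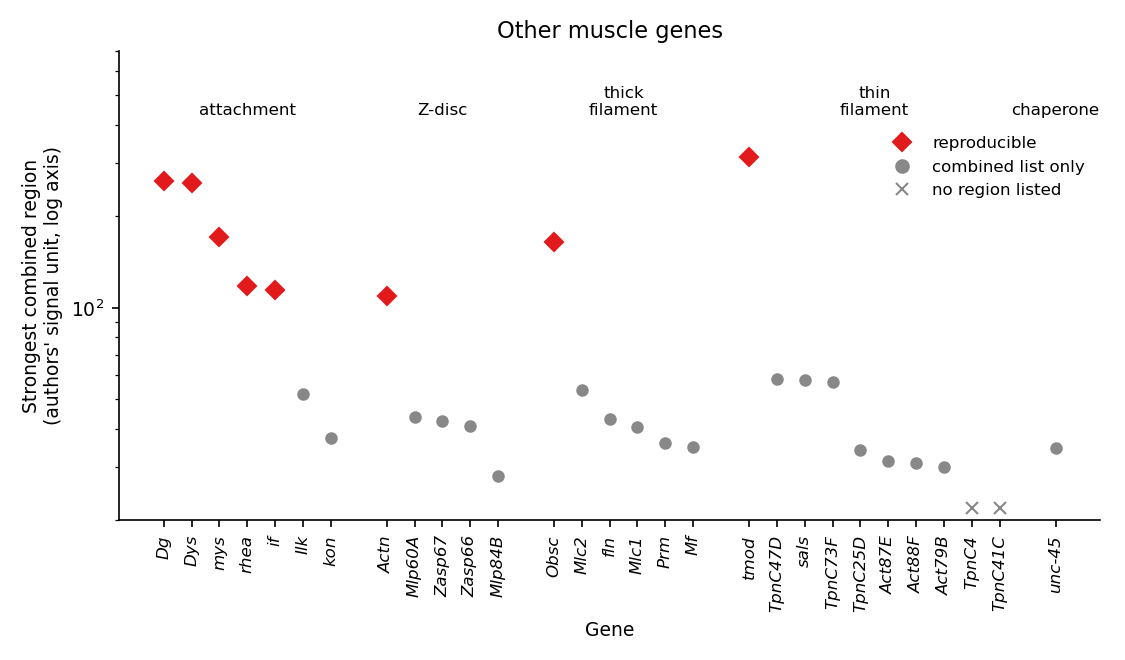
Strongest combined region (log axis, authors' unit) of each of the 29 other muscle genes by role; red diamonds are genes with a reproducible summit, grey circles genes with regions in the combined list only, crosses genes with none. The attachment group has 5 diamonds of 7, from 114.8 to 260.2, and the thin filament group 1 of 10, tmod with 313.7.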

How the data were processed

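Peak lists of anti-GFP ChIP-seq were analysed as deposited, in narrowPeak form on dm6. Column 7 of the deposited lists is a signal value in the authors' unit, and column 9 is the authors' q-value as −log10. Per the deposited text files, the replicate lists came from each replicate with a control, the combined list from both, and the reproducible list from these by irreproducible discovery rate. Aligner, peak caller, settings and the number of reads were not given in the sources used here. Lists on dm3 were not used.

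Gene models were Ensembl release 115, with 19252 TSS positions, and sequence was from the RefSeq genome of the same assembly. Coordinates count from 1. A combined region was matched to a replicate when its summit lay in a region of that replicate, taking the strongest. Shares have 95% Clopper-Pearson intervals. With 1 group, no test between conditions was made. Members and lists were chosen with earlier results of these data known. Named were all members, other muscle genes with a reproducible summit, and the 3 peaks most like each member's peak in rank. Assignment was checked on 200 planted summits. Python 3.11.15, numpy 2.4.6, pandas 2.3.3, scipy 1.17.1 and matplotlib 3.10.9 were used. Alternatives were a stricter list, other windows, whole-peak overlap, the gene body alone, nearest TSS, other matches, other motif windows, members of 20 kb or more and each replicate alone. The 20 kb length class, the densities by place and the values of the stronger regions at all genes were chosen after seeing the data.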

Additional observations from a re-analysis of the deposited data

How the results depend on the processing

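Of 47 alternative values of 9 results, 39 stayed within set limits. These were 1.5 times of a count, the interval of a share or the SD of a ratio. A change from 3 members to 2 or 4 is within that limit for a count. The count among members of 20 kb or more could not move, since all 3 members with a reproducible summit are that long. With the gene body alone, 2 members and 2 summits were counted, and sls was lost because its summit lies upstream of the gene. With a window of 2 kb, 4 members had a promoter summit in place of 2, Tm1 and Zasp52 being added. With each summit given to its nearest TSS, 5 reproducible summits fell to members in place of 3, both added ones at Zasp52. The stricter list left 5 of the 8 other muscle genes, and left Msp300 and sls but not Tm1 among the members. Without 1 replicate, the strongest 2433 regions of the other stood in for the reproducible list, with no filter for reproducibility. Then 2 to 3 members and 2 to 3 summits were counted, the lower value without replicate 1, where Tm1 was lost. Members with a promoter summit stayed at 2 and other muscle genes at 8. In the full list of 1 replicate, 90 to 97 regions lay at members, with 19.6% to 27.8% within 1 kb of a TSS.

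Among the 15000 combined regions with the higher signal, 34 regions remained at members, with 41.2% within 1 kb of a TSS (52.3% at all genes) and 67.6% matched in both replicates (66.9% at all genes). With 50 bp on either side, the 3 peaks held 1 motif, and with 200 bp 6. No paired analysis was possible because there is 1 group. Depth is unknown, so no limit of detection can be given.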
